A study of Mus musculus with 28 samples.

Results

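The aryl hydrocarbon receptor pathway was followed in mouse ventricular myocardium through 6 genes, taken as the rows of the deposited count table named Ahr, Ahrr, Arnt, Cyp1a1, Cyp1b1 and Tiparp. They are 6 of 45513 gene rows, and all 6 were among the 24273 genes that passed the filter on low counts, Cyp1a1 through 1 group alone. RNA was sequenced from the hearts of 28 male adult C57BL/6 mice, 1 library per mouse, after perfusion with PBS, in a study that asked whether Oxalobacter formigenes (Oxf), a gut bacterium that degrades oxalate, alters kidney disease and the heart. All mice ate a diet with 1% hydroxyproline, from which oxalate is formed, and 0.5% calcium, so every comparison is made on that diet. At 6 weeks of age they had 5/6 nephrectomy, a removal of most kidney tissue that causes chronic kidney disease (CKD), or a sham operation. On day 7 they were given 1 oral dose of live Oxf or of culture medium alone (vehicle).

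The groups were sham-vehicle (sham operation and medium, 10 mice), CKD-vehicle (nephrectomy and medium, 6 mice), sham-Oxf (sham operation and bacterium, 5 mice) and CKD-Oxf (nephrectomy and bacterium, 7 mice). The p-values measure the spread between mice. Mouse numbers, used here to name libraries, run in blocks by group (901 to 910, 913 to 920, 921 to 929 and 931 to 940), so anything that followed the order of handling cannot be told apart from the groups. Libraries held 19.8 to 65.4 M counts (M for mega). The library of mouse 921 (sham-Oxf) had 15879 genes with a count, against 27128 to 33995 in the others. The 7SL RNA took 1.83% to 21.0% of counts, and the clock score, which places a library on the daily cycle, differed between the groups (0.828 ± 0.986 in CKD-vehicle, 2.27 ± 1.02 in sham-vehicle, 3.27 ± 0.521 in CKD-Oxf and 3.86 ± 0.44 in sham-Oxf, mean ± SD). The heart muscle myosin Myh6 stood at 2720 ± 612 CPM per kilobase (SD, n = 28), while the atrial myosin light chain Myl7 stood at 418 ± 266, with a spread between libraries wider than that of Myh6 relative to its mean.

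The receptor is a transcription factor kept in the cytosol by a chaperone complex until a ligand binds, whereupon it enters the nucleus and pairs with ARNT on DNA. Its ligands include planar aromatic pollutants and indoles that gut bacteria make from tryptophan, some of which are retained in the blood when the kidneys fail. The cytochrome P450 genes Cyp1a1 and Cyp1b1, the ADP-ribosyltransferase gene Tiparp and the repressor gene Ahrr are classical targets, and the products of the last 2 restrain the receptor. ARNT also serves as partner of the hypoxia-inducible factors.

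The receptor and ARNT recognise DNA with the core GCGTG. The table of RefSeq promoters (GRCm38.p6) matched 5 of the 6 genes, all but Ahr. The 250 bases upstream of the transcript start are shown for the 4 target genes, 5′ to 3′ on the gene's own strand, with the core or its complement CACGC in capitals. The capitals mark matches of letters only, and binding of the receptor to them was not tested. The windows are chr9:57697363-57697612 for Cyp1a1 (plus strand), chr17:79715062-79715311 for Cyp1b1 (minus), chr3:65528197-65528446 for Tiparp (plus) and chr13:74292332-74292581 for Ahrr (minus).
Cyp1a1: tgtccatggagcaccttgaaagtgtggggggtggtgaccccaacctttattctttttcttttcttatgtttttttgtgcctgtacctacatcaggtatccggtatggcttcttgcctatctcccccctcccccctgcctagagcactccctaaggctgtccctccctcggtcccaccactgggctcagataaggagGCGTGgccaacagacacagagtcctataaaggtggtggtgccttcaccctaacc
Cyp1b1: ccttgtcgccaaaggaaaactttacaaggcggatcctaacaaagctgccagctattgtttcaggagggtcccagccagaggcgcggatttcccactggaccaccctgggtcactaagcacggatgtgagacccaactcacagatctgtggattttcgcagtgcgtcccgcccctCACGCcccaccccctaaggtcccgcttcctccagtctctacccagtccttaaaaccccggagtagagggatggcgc
Tiparp: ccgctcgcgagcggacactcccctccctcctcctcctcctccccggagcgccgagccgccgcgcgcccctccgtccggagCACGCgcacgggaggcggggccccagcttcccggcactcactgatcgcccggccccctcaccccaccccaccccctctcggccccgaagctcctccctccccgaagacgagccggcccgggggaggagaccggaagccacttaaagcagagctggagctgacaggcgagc
Ahrr: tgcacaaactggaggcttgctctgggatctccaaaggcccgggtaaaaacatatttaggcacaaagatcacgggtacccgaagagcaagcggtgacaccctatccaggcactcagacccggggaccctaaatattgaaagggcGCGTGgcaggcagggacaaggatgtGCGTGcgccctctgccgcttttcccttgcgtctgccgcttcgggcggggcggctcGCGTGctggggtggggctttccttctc
The core was found once in Cyp1a1, at 54 to 50 bases before the start, and once each in Cyp1b1 (76 to 72 bases, complement) and Tiparp (170 to 166 bases, complement). Ahrr held it 3 times, at 107 to 103, 82 to 78 and 27 to 23 bases. Arnt held it once, at 29 to 25 bases. On either strand, GCGTG occurred in 28.2% of 32851 promoter windows of this length. The longer form TTGCGTG was in none of the 5 windows and in 0.925% of all, and the E-box CACGTG was in none of the 5 and in 6.02% of all; TTGCGTG contains the core, so its matches are also core matches. The GC content of the 5 windows ran from 53.6% in Cyp1a1 to 75.2% in Tiparp.

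Levels of different genes were compared in CPM, counts scaled to the usual library size, per kilobase of merged exons, over all 28 libraries (mean ± SD). Arnt, the shared partner, was the highest at 6.9 ± 0.48, above 85.0% of the genes tested. Tiparp at 2.69 ± 0.615, Cyp1b1 at 2.46 ± 1.15 and Ahr itself at 2.44 ± 0.393 were close together, above 61.5% to 64.2% of genes. Ahrr at 0.171 ± 0.0676 was above 10.3%, and Cyp1a1 at 0.0467 ± 0.0518 above 1.46%. The partner was thus in the upper part of the range, the receptor and 2 targets at middle levels, and the repressor and the best known target near the bottom. The spread between mice ran in another order. The coefficient of variation of CPM was 6.95% for Arnt, 16.1% for Ahr, 22.8% for Tiparp, 39.6% for Ahrr, 46.9% for Cyp1b1 and 111% for Cyp1a1. Between the lowest and the highest library, Arnt differed 1.29-fold, Ahr 1.91-fold, Tiparp 2.91-fold and Cyp1b1 7.92-fold.

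**Figure D1:**
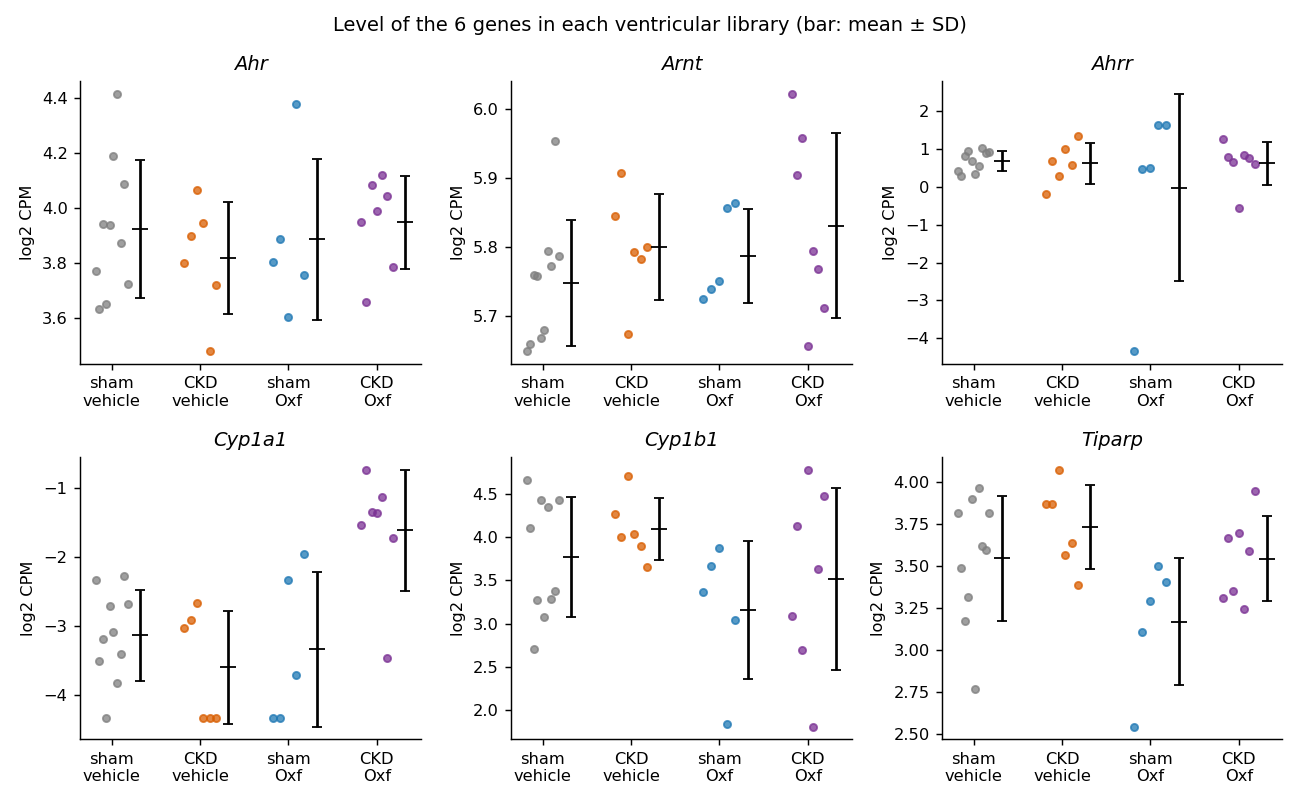
Level of each gene in log2 CPM (vertical axis, scaled separately for each gene) in each of the 28 libraries by group, with the group mean ± SD as a bar beside the points. The groups overlap for every gene, and for Cyp1a1 6 of the 7 CKD-Oxf libraries lie above all libraries of the other groups.

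None of the 6 genes passed an edgeR adjusted p of 0.05 in any of the 7 contrasts, which were the 4 pairwise comparisons along surgery or gavage, their interaction, and each factor averaged over the other. Over all 24273 genes tested, 0.00824% passed in CKD-vehicle against sham-vehicle, 0.033% in CKD-Oxf against CKD-vehicle and 2.81% in Oxf averaged over surgery. The share was 0% in sham-Oxf against sham-vehicle, CKD-Oxf against sham-Oxf, the interaction and CKD averaged over gavage. A count of 0 among 6 genes is therefore near the background in every contrast. At an unadjusted p under 0.05, the members numbered 0 in CKD-vehicle against sham-vehicle (4.46% of all genes), 1 in CKD-Oxf against CKD-vehicle (13.1%), 1 in sham-Oxf against sham-vehicle (12.6%) and 1 in CKD-Oxf against sham-Oxf (8.23%). They numbered 1 in the interaction (3.55%), 2 in Oxf averaged over surgery (23%) and 1 in CKD averaged over gavage (10.6%). These were Cyp1a1 and Tiparp alone. The contrasts share samples, so the counts are not separate pieces of evidence.

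**Figure D2:**
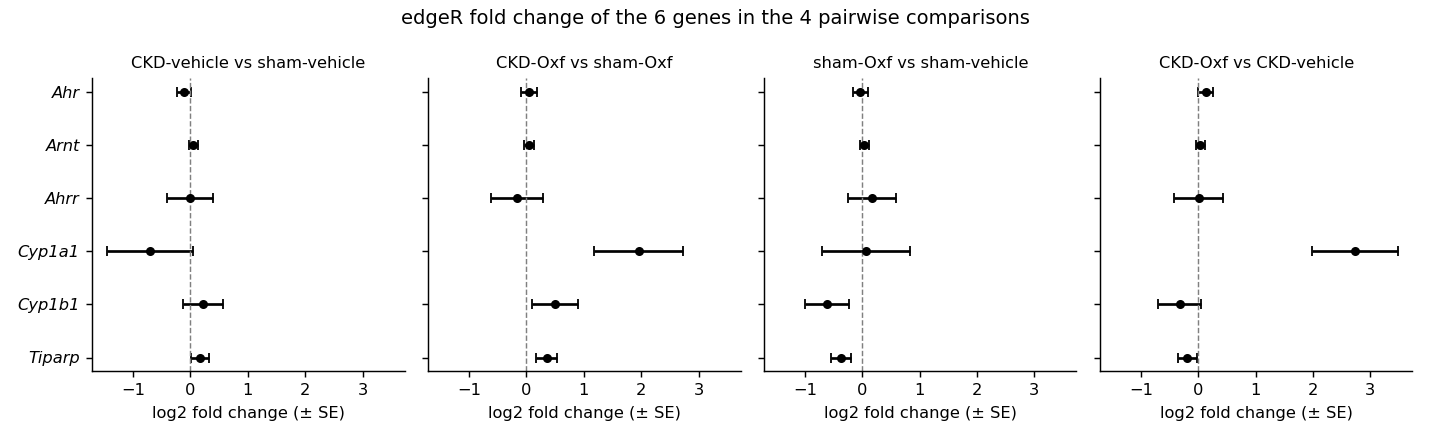
Fitted log2 fold change (horizontal axis, point, with SE as bar) of the 6 genes in the 4 pairwise comparisons. The bars of Ahr and Arnt stay close to 0 in each panel, and the point farthest from 0 is Cyp1a1 in CKD-Oxf against CKD-vehicle, at 2.73.

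The receptor gene Ahr (ENSMUSG00000019256, GRCm38 chromosome 12, 35497974 to 35535038, minus strand) differed between the groups by less than the spread between mice. Its CPM ran from 12.4 through a median of 14.9 to 21.3 in sham-vehicle and from 11.1 through 14.4 to 16.7 in CKD-vehicle. In sham-Oxf the 5 libraries were at 13.9, 14.7, 12.1, 20.7 and 13.5 (mice 921, 923, 925, 927 and 929), and in CKD-Oxf the range was 12.6 through 15.8 to 17.3. All 4 ranges overlapped, and each neighbouring pair in the order of group means (CKD-Oxf, sham-vehicle, sham-Oxf, CKD-vehicle) differed by at most 0.07 on the log2 scale, less than 1 SD. The fitted log2 fold change was -0.11 ± 0.13 (SE) for CKD-vehicle against sham-vehicle and 0.13 ± 0.14 for CKD-Oxf against CKD-vehicle (edgeR adjusted p 0.955 and 0.712). It was -0.03 ± 0.13 for sham-Oxf against sham-vehicle and 0.04 ± 0.14 for CKD-Oxf against sham-Oxf. Exons of Ahr overlap those of the long noncoding RNA gene Gm48236 on the other strand, and the use of strand in the counting is not given in the sources used here. In bulk tissue, fewer cells that express a gene and less RNA per cell cannot be told apart, which holds for all 6 genes.

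Arnt (ENSMUSG00000015522, chromosome 3, 95434388 to 95497240, plus strand) was the steadiest of the 6 genes. Its CPM ran from 50.2 through a median of 54.1 to 61.9 in sham-vehicle, from 51.0 through 55.5 to 59.9 in CKD-vehicle and from 50.4 through 55.4 to 64.9 in CKD-Oxf. The sham-Oxf libraries were at 52.8, 53.3, 53.8, 57.9 and 58.2. The highest values belonged to mouse 931 and mouse 933 (62.1) of CKD-Oxf and mouse 909 of sham-vehicle, and every group also held libraries under 54 CPM. The 4 pairwise log2 fold changes lay between 0.03 ± 0.08 and 0.05 ± 0.07 (SE), and the interaction was 0.00 ± 0.11 (edgeR adjusted p 1).

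Ahrr (ENSMUSG00000021575, chromosome 13, 74211118 to 74292331, minus strand), the repressor that competes with the receptor for ARNT, had the same mean in 3 groups. It stood at 1.58 ± 0.301 CPM in sham-vehicle, 1.58 ± 0.584 in CKD-vehicle and 1.58 ± 0.514 in CKD-Oxf (SD, n = 10, 6 and 7). The sham-Oxf libraries of mice 921, 923, 925, 927 and 929 were at 0, 1.33, 1.37, 3.05 and 3.05 CPM. This group therefore held both the lowest and the 2 highest libraries of the study. The library at 0 was that of mouse 921, where a count of 0 allows up to 0.142 CPM (3 counts, counting error only). The fitted difference between sham-Oxf and sham-vehicle was 0.17 ± 0.42 on the log2 scale (SE, edgeR adjusted p 0.91), and the other 3 pairwise differences ran from -0.17 ± 0.45 to 0.00 ± 0.43. With SEs of 0.40 to 0.45, Ahrr is the member, after Cyp1a1, whose differences these libraries fix least well.

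Cyp1a1 (ENSMUSG00000032315, chromosome 9, 57687928 to 57703824, plus strand), which encodes a P450 enzyme that oxidises the receptor's own ligands, was the member with the largest difference between groups, at very low counts. The raw counts in sham-vehicle were 8, 1, 2, 0, 4, 3, 1, 2, 6 and 4 for mice 901 to 910. In CKD-vehicle, mice 913, 914 and 916 had 4 each, and mice 918, 919 and 920 had 0. In sham-Oxf, mice 921 and 923 had 0, mouse 925 had 5, mouse 927 had 1 and mouse 929 had 8. The CKD-Oxf libraries held 14 (mouse 931), 23 (932), 12 (933), 13 (934), 15 (935), 2 (936) and 13 (940). In 6 of the 7 CKD-Oxf mice the count was thus above every library of the other 3 groups, and in mouse 936 it was within their range.

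In normalised units Cyp1a1 stood at 0.32 ± 0.156 CPM in CKD-Oxf (SD, n = 7), 0.0749 ± 0.0528 in sham-vehicle (n = 10), 0.0769 ± 0.0959 in sham-Oxf (n = 5) and 0.0444 ± 0.05 in CKD-vehicle (n = 6). In log2 CPM the step from CKD-Oxf to the next group, sham-vehicle, was 1.53, more than the larger of their SDs (0.87), while the other 3 groups differed from each other by 0.20 and 0.27, less than their SDs. In the 6 libraries at 0, the count allows up to 0.066 to 0.142 CPM. The log2 fold change of CKD-Oxf against CKD-vehicle was 2.73 ± 0.75 (SE, edgeR p 0.00111, adjusted p 0.196). Of the 7 CKD-Oxf libraries, 6 lay above the highest CKD-vehicle library. Mouse 936, at 0.0415 CPM, was below mice 913, 914 and 916 of CKD-vehicle (0.0738, 0.0835 and 0.109 CPM). Against sham-Oxf, CKD-Oxf was 1.96 ± 0.78 higher (p 0.0171, adjusted p 0.446). The interaction, which asks whether the bacterium's difference depends on the surgery, was 2.67 ± 1.08 (p 0.0198, adjusted p 1). Without the bacterium, CKD-vehicle and sham-vehicle differed by -0.71 ± 0.75 (adjusted p 0.955). Among sham mice, those with and without the bacterium (sham-Oxf and sham-vehicle) differed by 0.06 ± 0.76 (adjusted p 0.985).

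The low counts shaped which tests Cyp1a1 could enter. The filter asked for 5 libraries at 0.262 CPM or more (raw library size), which 5 CKD-Oxf libraries reached and no library of another group, so the gene entered the test only through the group where it was high and had to differ. Its passing the filter is no support for the difference, and its p-values among the filtered genes are read with that limit. Without the filter, edgeR on all libraries gave 2.71 ± 0.76 (SE, p 0.00104, adjusted p 0.337). The side of the 0.05 threshold on which it fell depended on the method. With the filter, DESeq2 gave 2.82 ± 0.79 with an adjusted p of 0.0486 (190 genes called), and limma voom with sample weights gave 3.13 ± 0.74 with an adjusted p of 0.0105 (3639 genes called). Without mouse 921 and mouse 934, the library with the highest liver marker level, an exclusion chosen after seeing the data, edgeR gave 2.71 ± 0.74 with an adjusted p of 0.0305. The unadjusted p there was 0.00111, as with all libraries, while the number of genes called went from 8 to 2189, so the adjusted value moved with the other genes. Leaving out 1 library of either group at a time with the filter kept, where the gene still passed it, the log2 fold change ran from 2.48 to 3.11 and the edgeR adjusted p from 0.121 to 0.476. Leaving out 1 CKD-Oxf library at a time without the filter, it ran from 2.52 to 2.92 and the adjusted p from 0.0889 to 0.532.

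Liver and lung are organs in which Cyp1a1 is readily induced, and liver markers differed between these groups. The summed level of 6 liver genes (Alb the highest) was 0.436 through a median of 4.98 to 94.3 CPM in CKD-Oxf, and 0.616 through 1.03 to 2.04 in CKD-vehicle. In sham-vehicle it was 0.745 through 5.75 to 23.8, and in sham-Oxf 1.01 through 10.6 to 53.3. In CKD-Oxf against CKD-vehicle the median log2 fold change of these 6 genes was 3.43, all 6 had an unadjusted p under 0.05 (13.1% of all genes) and 0 passed adjustment (0.033%). In Oxf averaged over surgery, where 2.81% of all genes passed, 2 of the 6 did, both higher, Alb at 2.67 ± 0.69 and Serpina1c at 2.76 ± 0.72 (SE, edgeR adjusted p 0.04 each). Mouse 936, lowest in Cyp1a1 in its group, was also lowest in liver markers (0.436 CPM). Mice 934 and 935 of CKD-Oxf, with liver marker sums of 94.3 and 20.8 CPM, had Cyp1a1 counts of 13 and 15. The libraries of mice 921, 907 and 908, with liver marker sums of 53.3, 19.3 and 23.8 CPM, had Cyp1a1 counts of 0, 1 and 2, while mouse 940, at 2.32 CPM, had 13. The library of mouse 921 also had the fewest genes with a count. Within groups the Pearson r of the liver score and Cyp1a1 was -0.779 in sham-vehicle, 0.481 in CKD-vehicle and 0.668 in CKD-Oxf (n = 10, 6 and 7, a description). Over all 28 libraries with group means removed r was -0.14 (Spearman rho -0.27, permutation p 0.515 and 0.189, adjusted p 0.669 and 0.465). With the liver score as covariate, chosen after seeing the data, CKD-Oxf against CKD-vehicle was 3.11 ± 0.87 (SE, edgeR p 0.0013, adjusted p 0.0457, 849 genes called). Without the covariate the edgeR p was 0.00111 (adjusted p 0.196, 8 genes called), so the adjusted value moved with the other genes. The part of liver RNA in the difference was not tested beyond these values.

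The summed level of lung epithelium markers was high in 1 library. The summed level of 5 lung epithelium genes (Scgb1a1 the highest) reached 10.8 CPM in mouse 940 and was at most 1.94 CPM elsewhere, with CKD-Oxf at a median of 0.314, CKD-vehicle at 0.173, sham-vehicle at 0.277 and sham-Oxf at 0.338. The sum leans on Scgb1a1, with a mean of 0.43 CPM over all 28 libraries, against 0.191 for Sftpb, 0.0387 for Sftpc and 0.0376 for Sftpa1. Cldn18 had a mean of 0.00361 CPM over all 28 libraries, too low to compare groups, and was at 0 in all sham-vehicle and all sham-Oxf libraries. Without mouse 940 and without the filter, Cyp1a1 in CKD-Oxf against CKD-vehicle was at 2.76 ± 0.79 (edgeR p 0.00132). Only 1 of the 5 lung epithelium genes passed the filter, and that fit covers the lung RNA of 1 library alone. The part of lung RNA in the difference was not tested. The clock score ran from -0.21 to 2.08 in CKD-vehicle and from 2.19 to 3.88 in CKD-Oxf. With this score as covariate, the log2 fold change of Cyp1a1 between these groups was 3.17 ± 1.19 (edgeR p 0.0129, adjusted p 1). The ranges of the score did not overlap, so the clock and the group cannot be told apart in that fit.

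**Figure D3:**
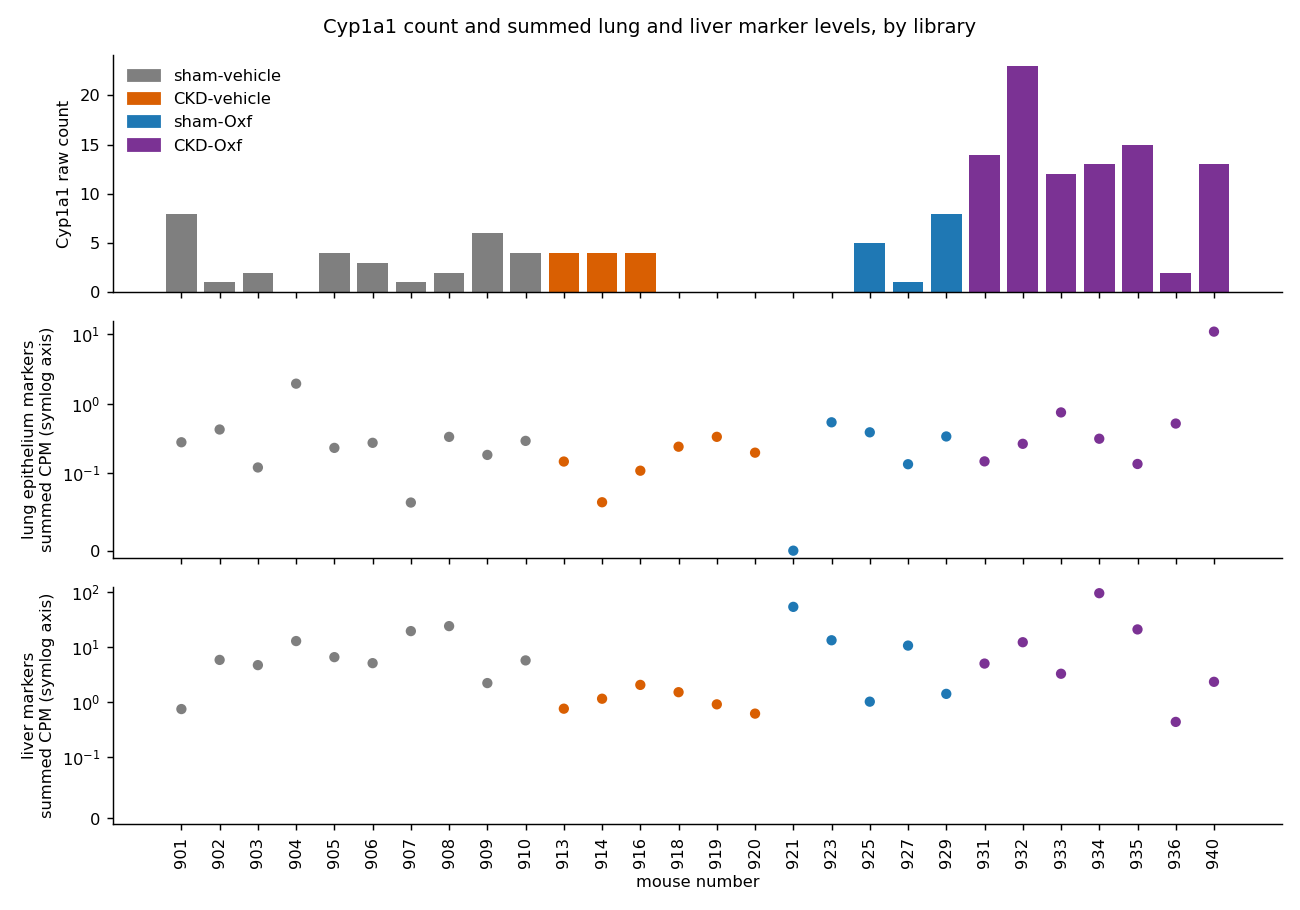
Cyp1a1 raw count (top, bars from 0) and summed CPM of 5 lung epithelium markers (middle) and 6 liver markers (bottom) for each library by mouse number; the 2 lower axes are logarithmic except near 0. The bars of CKD-Oxf reach 12 or more in all but mouse 936, the lung markers peak in mouse 940 at 10.8 CPM, and the liver markers are lowest as a group in CKD-vehicle.

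Cyp1b1 (ENSMUSG00000024087, chromosome 17, 79701537 to 79715061, minus strand) encodes a P450 enzyme of mesenchymal and vascular cells. It varied widely between mice of the same group. Its CPM ran from 6.46 through a median of 13.8 to 25.3 in sham-vehicle, from 12.5 through 16.2 to 26.0 in CKD-vehicle and from 3.46 through 12.3 to 27.4 in CKD-Oxf. In sham-Oxf the libraries were at 10.2, 12.6, 14.7, 3.54 and 8.20 (mice 921 to 929). The lowest and the highest library of the study were both in CKD-Oxf, mouse 935 and mouse 934. All 5 sham-Oxf libraries lay below the CKD-vehicle median, and 3 of them below the lowest CKD-vehicle library.

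The group means of Cyp1b1 were, from high to low, in the order CKD-vehicle, sham-vehicle, CKD-Oxf and sham-Oxf, with steps of 0.32, 0.26 and 0.36 in log2 CPM, each less than the larger SD of its pair. The log2 fold change was -0.61 ± 0.38 for sham-Oxf against sham-vehicle (SE, edgeR p 0.121, adjusted p 0.514) and -0.33 ± 0.37 for CKD-Oxf against CKD-vehicle (adjusted p 0.733). Averaged over surgery, Oxf differed from vehicle by -0.47 ± 0.27 (p 0.0894, adjusted p 0.295). CKD differed from sham by 0.22 ± 0.35 under vehicle and by 0.50 ± 0.40 under Oxf (adjusted p 0.955 and 0.833).

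Tiparp (ENSMUSG00000034640, chromosome 3, 65528410 to 65555518, plus strand) encodes an ADP-ribosyltransferase that the receptor induces and that then limits the receptor. Its CPM ran from 6.76 through a median of 12.1 to 15.6 in sham-vehicle, from 10.4 through 13.5 to 16.8 in CKD-vehicle and from 9.42 through 12.0 to 15.4 in CKD-Oxf. The sham-Oxf libraries were at 5.79, 8.58, 9.76, 11.3 and 10.5. Each of these 5 lay below the median of each other group, though the ranges overlapped. The lowest library was again that of mouse 921, and the highest were mouse 916 of CKD-vehicle and mouse 907 of sham-vehicle.

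For Tiparp the order was CKD-vehicle, sham-vehicle, CKD-Oxf and sham-Oxf, with steps of 0.19, 0.00 and 0.37 in log2 CPM, each less than the larger SD of its pair. The log2 fold change was -0.38 ± 0.17 for sham-Oxf against sham-vehicle (SE, edgeR p 0.0379, adjusted p 0.363) and -0.19 ± 0.17 for CKD-Oxf against CKD-vehicle (adjusted p 0.655). Oxf averaged over surgery gave -0.28 ± 0.12 (p 0.0279, adjusted p 0.162), and CKD averaged over gavage gave 0.26 ± 0.12 (p 0.0415, adjusted p 0.453). In both averaged contrasts Tiparp and Cyp1b1 had the same sign, and neither passed. Exons of Tiparp overlap those of the pseudogene 4931440P22Rik on the other strand, so part of its count may belong to that gene.

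The 6 genes were then set against each other within groups, after removing group means from log2 CPM, in 15 pairs. Cyp1b1 and Tiparp varied together, with a Pearson r of 0.529 and a Spearman rho of 0.627 over 28 libraries (permutation p 0.00513 and 0.00126, adjusted over the 15 pairs 0.0385 and 0.0189). The r was 0.668 without the 2 farthest libraries. Within sham-vehicle it was 0.8, within CKD-vehicle 0.892 and within CKD-Oxf 0.892 (n = 10, 6 and 7). Sham-Oxf, with 5 mice, was too small for a value, and there mouse 927 had the lowest Cyp1b1 (3.54 CPM) and the highest Tiparp (11.3 CPM). Ahrr and Arnt had an r of 0.372 and a rho of 0.501 (p 0.00213 and 0.00303, adjusted p 0.0319 and 0.0227), with 0.645 in sham-vehicle, 0.0509 in CKD-vehicle and 0.728 in CKD-Oxf. Without the 2 farthest libraries that r was 0.459. With the atrial score removed, neither pair passed (adjusted p 0.0639 for Cyp1b1 with Tiparp at an r of 0.527, and 0.0811 for Ahrr with Arnt at 0.332). Cyp1a1 passed with none of the other 5 genes, the closest being Tiparp (r 0.347, p 0.0893, adjusted p 0.268).

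Against 13 sets of cell type and tissue markers, 78 relations in all, 5 passed adjustment by Pearson r, and they belonged to Cyp1b1 and Tiparp. Cyp1b1 followed the fibroblast genes (r 0.769, rho 0.817), the atrial genes (r 0.833, rho 0.818) and the mesothelium genes (r 0.841, rho 0.806), each at a permutation p of r of 2e-05 or 3e-05 and adjusted 0.00078. The p of rho was 1e-05 in each, the smallest that 100000 draws can give, and 0.00026 adjusted. Without the 2 farthest libraries these r were 0.751, 0.731 and 0.761. Within sham-vehicle and CKD-Oxf all 3 were between 0.806 and 0.877, and within CKD-vehicle they were 0.944, 0.384 and 0.711 in the same order. Tiparp followed the macrophage genes (r 0.694, rho 0.736, p 0.00011 and 7e-05, adjusted 0.00214 and 0.00136) and the mesothelium genes (r 0.595, rho 0.683, p 0.00091 and 0.00022, adjusted 0.0142 and 0.00343). Cyp1b1 and the macrophage genes passed by rho alone (0.682, adjusted p 0.00364, against an r of 0.467 with adjusted p 0.121). For Tiparp, without the 2 farthest libraries the r were 0.719 and 0.557. Within sham-vehicle, CKD-vehicle and CKD-Oxf, Tiparp had an r of 0.845, 0.705 and 0.76 with macrophage genes and of 0.784, 0.646 and 0.862 with mesothelium genes.

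The same marker sets differed in level between libraries of 1 group. The summed level of 4 atrial genes was 107 through a median of 738 to 1690 CPM in sham-vehicle, 643 through 1320 to 1650 in CKD-vehicle, 32.4 through 559 to 1130 in sham-Oxf and 15.6 through 684 to 1270 in CKD-Oxf. Mouse 935 and mouse 927, with the lowest Cyp1b1, also had the lowest atrial sums of their groups. In Oxf averaged over surgery, the median log2 fold change was -0.79 for the 4 atrial genes (0 passed), -0.56 for the 6 fibroblast genes (1 passed, Lum, lower, where 1.54% of all genes were) and -0.07 for the 4 mesothelium genes (0 passed), beside 0.00 over all genes. For the 6 macrophage genes it was -0.03 (0 passed). With the atrial score as covariate, chosen after seeing the data, Cyp1b1 in CKD-Oxf against CKD-vehicle was 0.06 ± 0.23 in place of -0.33 ± 0.37. With the same covariate it was -0.34 ± 0.23 in sham-Oxf against sham-vehicle, in place of -0.61 ± 0.38, and -0.14 ± 0.17 in Oxf averaged over surgery, in place of -0.47 ± 0.27. The atrial score was already known to follow Cyp1b1 (r 0.833), and none of these differences had passed without the covariate. The part of atrial tissue in them was not tested.

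**Figure D4:**
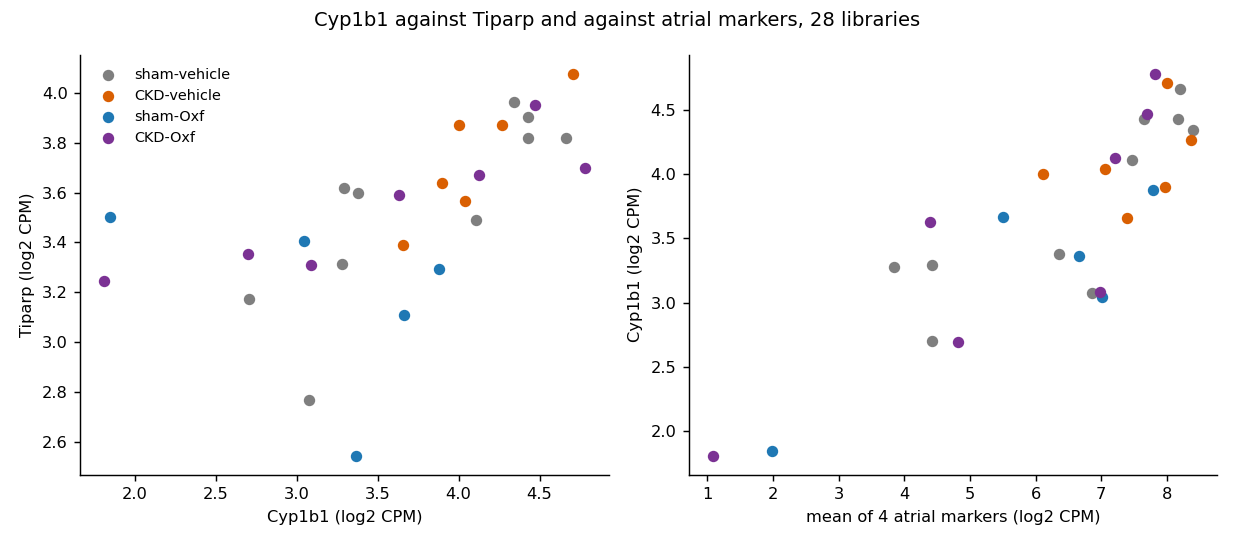
Left, Tiparp against Cyp1b1, and right, Cyp1b1 against the mean of 4 atrial markers, all in log2 CPM, 1 point per library coloured by group. The points run upward in both panels; mice 935 and 927 lie at the lower left of the right panel, and mouse 927 stands above the trend in the left panel.

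The clock score was compared with each gene because earlier results of these data showed clock genes varying with mouse number and group. ARNT belongs to the same protein family as the clock factors CLOCK and ARNTL. The score is the mean log2 CPM of 10 clock genes including Nr1d1 minus that of 5 clock genes including Clock. In the 10 sham-vehicle libraries Arnt had a Pearson r of 0.802 and a Spearman rho of 0.867 with it (permutation p 0.0035 and 0.00229, adjusted over the 6 genes 0.021 and 0.0137). Without the 2 libraries farthest from the median score r was 0.613 (permutation p 0.106, adjusted p 0.442), so the call was not kept. Leaving them out also narrows the range of the score, so whether the call rested on those libraries cannot be told. In this group the score also followed the mouse number, from 0.836 in mouse 901 to 3.97 and 3.53 in mice 909 and 910, so the clock and any order of handling cannot be told apart there. Within CKD-vehicle r was -0.273 (n = 6) and within CKD-Oxf -0.594 (n = 7). Over all 28 libraries with group means removed r was 0.205 for Arnt (adjusted p 0.721), and the smallest adjusted p was that of Ahrr, 0.0501 at an r of 0.318. None of the 6 genes passed over all libraries.

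**Figure D5:**
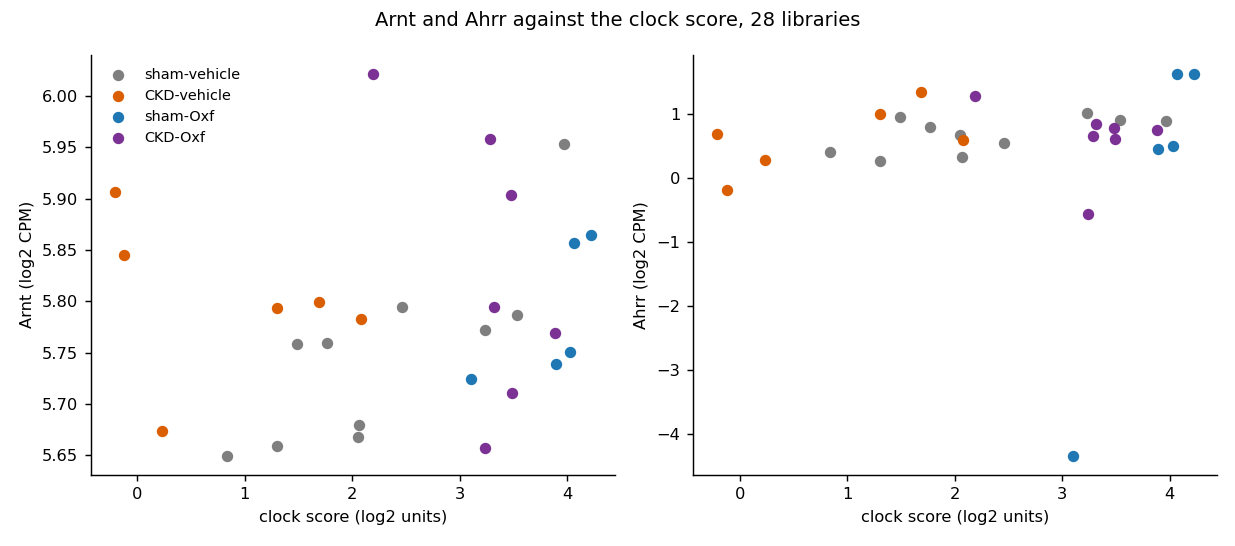
Arnt (left) and Ahrr (right) in log2 CPM against the clock score in log2 units, 1 point per library coloured by group. The sham-vehicle points of Arnt run upward from left to right, those of CKD-vehicle and CKD-Oxf do not, and mouse 921 is the single low point of Ahrr.

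The genes whose group-centred levels were most like those of each member were ranked by Spearman rho over 28 libraries among the 13905 genes whose average was 1 log2 CPM or more, which left out Ahrr and Cyp1a1. For Ahr they were Mef2c, a muscle transcription factor (rho 0.75), the unnamed gene ENSMUSG00000065999 (0.75) and Rassf9 (0.74). For Arnt they included Mlip, a muscle protein that binds lamins (0.82), and Las1l, needed to process ribosomal RNA (0.78). For Cyp1b1 they were Lyve1, a hyaluronan receptor of lymphatic endothelium and some macrophages (0.91), the matrix protein gene Smoc1 (0.90) and Mgp, which encodes an inhibitor of calcification (0.89). For Tiparp they were the aminopeptidase gene Lnpep (0.85), the sodium channel gene Scn7a (0.85) and Rbl2, of the retinoblastoma family (0.84). Without mouse 921 these rho stayed between 0.72 and 0.92.

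The proteins that hold the receptor in the cytosol were the one set around the pathway with a gene that passed. Of 5 chaperone complex genes tested, 1 fell in Oxf averaged over surgery, where 1.54% of all genes fell, and 0 passed in the other 6 contrasts. Hsp90aa1, the inducible HSP90, ran from 35.0 through 79.5 to 234 CPM in sham-vehicle, 55.8 through 77.7 to 98.3 in CKD-vehicle, 45.1 through 52.6 to 58.5 in sham-Oxf and 34.3 through 43.7 to 72.7 in CKD-Oxf. Its log2 fold change was -0.79 ± 0.20 (SE, edgeR adjusted p 0.0351). Hsp90ab1, the constitutive HSP90 and the highest of the set per kilobase (98.7 ± 28.7 CPM per kilobase, SD, n = 28), was at -0.45 ± 0.14 (adjusted p 0.0632). The median of the 5 genes was -0.45, beside 0.00 over all genes. With the clock score as covariate Hsp90aa1 was at -0.46 ± 0.33 (adjusted p 0.861), and with the 7SL share at -0.45 ± 0.19 (adjusted p 0.23). Its adjusted p was 0.0661 without the filter and 0.0862 with the atrial score as covariate. It was also above 0.05 without mouse 904, 907, 913, 914, 916, 923, 927, 929, 932, 933, 935 or 936, at most 0.0715.

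In the remaining 6 lists around the pathway no gene passed in any of the 7 contrasts. The 8 coregulators (Smarca4 the highest, 14.2 ± 2.55 CPM per kilobase), the 8 ARNT-dependent hypoxia targets (Vegfa, 79.5 ± 19.4) and 7 of 9 further members of the partner family (Epas1, 81.1 ± 14.8) could be tested. So could 9 of 10 other receptor targets (Nfe2l2, 11.5 ± 1.74), 9 of 11 tryptophan-degrading enzymes (Kyat1, 4.19 ± 0.721) and 4 of 6 genes of indole formation and transport (Sult1a1, 25.8 ± 7.03). In CKD-Oxf against CKD-vehicle the median log2 fold change was 0.18 for the coregulators, -0.13 for the hypoxia targets, 0.01 for the partner family, 0.23 for the other targets, 0.35 for the tryptophan enzymes and 0.33 for indole handling, beside 0.03 over all genes. The median of the 6 pathway members was 0.02. In CKD-vehicle against sham-vehicle the same medians were -0.05, 0.16, 0.02, -0.35, -0.09 and -0.10, beside -0.03 over all genes and 0.02 for the 6 members.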

How the data were processed

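RNA of ventricular myocardium from 28 mice was sequenced by the submitters. Raw counts per gene were deposited by the authors as 1 table, and its 28 columns were assigned to mice by library name, with 0 columns left over. The submitters' processing notes name STAR 2.6.1d, featureCounts 1.6.3, FastQC 0.11.7, MultiQC 1.9 and the build mm10. The annotation and the use of strand are not given in the sources used here. Positions came from GENCODE M21 (GRCm38), where 45465 of 45513 identifiers were found, and promoters from RefSeq.

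Counts were scaled by TMM and tested with edgeR 4.0.16 in R 4.3.3 (robust quasi-likelihood F test, 1 fit of 4 group means). The filter filterByExpr with a minimum count of 10 left 24273 genes, over which Benjamini-Hochberg adjusted p-values were taken at a threshold of 0.05. The code was tested on simulated data. CPM used effective library sizes, and log2 CPM a prior count of 2. Correlations used 100000 permutations within groups. Alternatives were DESeq2 1.42.0, limma 3.58.1 voom, other scalings, filters and covariates, and leaving out libraries. The genes, lists and tests were chosen with earlier results of these data known. Genes outside the 6 were named where they passed, as the highest per kilobase of their list, or as most alike in level, of which 1 is not reported here. The design describes 10 mice per group, and mice without a column were not analysed here. Intervals for counts of 0 cover counting error only.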

Additional observations from a re-analysis of the deposited data

Results flagged for a closer look

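Of 24 sets of values (6 genes in 4 groups), 4 held a library set apart from the rest of its group by Dixon's ratio, the gap to the nearest library over the range of the group in log2 CPM; chance gives about 1 in 20, or 1.2 sets. Ahrr had 2 of them. In sham-Oxf mouse 921 was lowest, with a ratio of 0.804 (limit 0.71 for 5 libraries), a count of 0 and the fewest genes detected of all libraries. In CKD-Oxf mouse 934, the library with the highest liver marker level, was lowest in Ahrr, at 0.628 CPM with a ratio of 0.641 (limit 0.568). Cyp1a1 in CKD-Oxf was lowest in mouse 936, with 2 counts and a ratio of 0.636 (limit 0.568). Arnt in sham-vehicle was highest in mouse 909, at 61.9 CPM with a ratio of 0.523 (limit 0.466); that library also had one of the 2 scores farthest from the median in the comparison of Arnt with the clock.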

How the results depend on the processing

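No paired analysis was possible because each mouse is in 1 group and the groups share no mouse numbers. Of 1319 refitted fold changes of the 6 genes, 1230 kept direction and side of the threshold, 5 newly passed, all of Cyp1a1, and 84 changed sign. None of the results that changed sign had passed, and the largest was 0.33 in size. The number of members called in CKD-Oxf against CKD-vehicle was 1 in place of 0 under DESeq2, under limma voom, without mice 921 and 934 and with the liver score as covariate, and in Oxf averaged over surgery 1 under limma voom (Cyp1a1 1.74, adjusted p 0.0212). All these fits kept the filter, which Cyp1a1 passed through CKD-Oxf alone in the main fit, so these calls are no support for a difference. The edgeR p of Cyp1a1 was 0.00111 without mice 921 and 934 and 0.0013 with the liver score, against 0.00111 in the main fit. Leaving out 1 library, the number of members called ranged from 0 to 0 in all 7 contrasts. Cyp1a1 failed the filter without mouse 932, 933, 934, 935 or 940, so it could not be called in those fits. It was then refitted without the filter, and the refits are not part of that count. Pairs of members that passed numbered 0 in place of 2 with the atrial score removed; members that passed with the clock score numbered 1 in place of 0 over all libraries with the atrial score removed, and 0 in place of 1 in sham-vehicle without the 2 farthest libraries.

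The values that changed sign follow, as log2 fold changes; the cause was not tested. CKD without Oxf stands for CKD-vehicle against sham-vehicle, and the like. Without the filter, Ahrr was 0.0017 for CKD without Oxf and -0.013 for Oxf in CKD. With the clock score as covariate, Ahrr was 0.32 for CKD without Oxf, -0.54 for Oxf in CKD, -0.26 for Oxf in sham, 0.046 for CKD with Oxf, -0.40 for Oxf averaged and 0.18 for CKD averaged. There Arnt was -0.023 for Oxf in CKD and -0.011 for Oxf averaged. With the 7SL share, Ahrr was 0.022 for CKD without Oxf, -0.057 for Oxf in CKD and -0.0042 for Oxf averaged. There Ahr was 0.022 for Oxf in sham. With the compared groups only, Ahrr was 0.0083 for CKD without Oxf. With the atrial score, Ahrr was 0.091 for CKD without Oxf, -0.17 for Oxf in CKD and -0.063 for Oxf averaged. There Cyp1b1 was 0.063 for Oxf in CKD. There Ahr was -0.014 for Oxf averaged. With limma voom, Ahr was 0.024 for Oxf in sham. With upper quartile scaling, Ahr was 0.0099 for Oxf in sham and -0.010 for CKD with Oxf. There Arnt was -0.0033 for CKD with Oxf. With the liver score, Cyp1a1 was -0.053 for Oxf in sham. There Ahrr was 0.065 for the interaction. There Arnt was 0.025 for the interaction. Under the DESeq2 test, Arnt was 0.0057 for the interaction. With DESeq2 size factors, Arnt was 0.0071 for the interaction. With the filter of 10 counts in every library, Arnt was 0.0073 for the interaction. Without mice 921 and 934, Arnt was 0.0086 for the interaction. Leaving out 1 library in turn (53 of the sign changes), Ahrr ranged from -0.18 to 0.13 for CKD without Oxf, -0.13 to 0.18 for Oxf in CKD, -0.12 to 0.47 for Oxf in sham, -0.47 to 0.12 for CKD with Oxf, -0.47 to 0.12 for the interaction, -0.057 to 0.24 for Oxf averaged and -0.24 to 0.057 for CKD averaged. Arnt ranged from -0.0004 to 0.056 for CKD without Oxf and -0.025 to 0.038 for the interaction. Ahr ranged from -0.18 to 0.032 for Oxf in sham, -0.048 to 0.19 for CKD with Oxf, -0.026 to 0.079 for Oxf averaged and -0.097 to 0.038 for CKD averaged. Cyp1a1 ranged from -0.73 to 0.41 for Oxf in sham.

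Depth limits Cyp1a1 most, with 12 counts in all of CKD-vehicle and 92 in CKD-Oxf, and then Ahrr. The strict filter of 10 counts in every library gave no value for either.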

Other observations

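A few genes near the pathway were chosen after their values were seen. Cyp1a2, another receptor target, which lies next to Cyp1a1 on chromosome 9 (57676937 to 57683703, minus strand) and is mainly a liver gene, did not pass the filter. It had 27 counts over the sham-vehicle libraries, 1 over CKD-vehicle, 1 over sham-Oxf and 19 over CKD-Oxf, of which 15 were in a single library. Alb, the liver albumin gene, stood at 5.01 ± 4.37, 0.637 ± 0.478, 9.09 ± 11.5 and 14.2 ± 24.9 CPM in the same groups (SD, n = 10, 6, 5 and 7), where Cyp1a2 stood at 0.0621 ± 0.0786, 0.00308 ± 0.00753, 0.00521 ± 0.0116 and 0.0688 ± 0.144. Both were low in CKD-vehicle, while in sham-Oxf the mean of Cyp1a2 was low and that of Alb was not. The sham-Oxf libraries were uneven, with liver marker sums of 1.01 CPM in mouse 925, 1.41 in mouse 929 and 53.3 in mouse 921. The source of either transcript was not tested.

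Serpinb2, a protease inhibitor gene that the receptor induces in some cells, had 89 counts over sham-vehicle, 19 over CKD-vehicle, 1 over sham-Oxf and 105 over CKD-Oxf, with 59 in 1 CKD-Oxf library. Its interaction had an edgeR p of 0.000136 and an adjusted p of 1. Ankrd37, a hypoxia target, was 0.81 ± 0.22 higher on the log2 scale in CKD-Oxf than in CKD-vehicle (SE, edgeR p 0.000714, adjusted p 0.191) and -0.58 ± 0.20 in CKD-vehicle against sham-vehicle (p 0.00772, adjusted p 0.955); the 2 comparisons share the CKD-vehicle libraries. Afmid, an enzyme of the kynurenine pathway that produces receptor ligands, was at 0.47 ± 0.14 in Oxf averaged over surgery (p 0.00237, adjusted p 0.0595). None of these genes passed.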
